A study of Mus musculus with 6 samples.

Results

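The 9 genes described here encode mast cell products and receptors and a mast cell growth factor: the granule proteases *Cpa3*, *Cma1*, *Mcpt4* and *Tpsb2*, the histamine-forming enzyme *Hdc*, the IgE receptor chains *Fcer1a* and *Ms4a2*, the receptor tyrosine kinase *Kit* and its ligand *Kitl*. They were chosen by name, as the rows whose Ensembl identifier carries these symbols in GENCODE M21 on GRCm38, and all 9 were found among the 26579 genes of the count matrix. RNA-Seq was performed on dorsal neck skin of 3 wild type mice (WT) and 3 YAP2-5SA-∆C transgenic mice (TG), all female littermates at postnatal day 33, with 1 library per mouse. The transgene is a mildly activated form of YAP, a transcriptional cofactor of the Hippo pathway, and is expressed in basal keratinocytes, so that mast cells were read here within whole skin and not in isolation. The comparison of TG with WT libraries asks how RNA of mast cell genes differs in skin with epidermal YAP activity.

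Mast cells reside in the dermis and store histamine, heparin and proteases in cytoplasmic granules. They release these when antigen crosslinks IgE bound to the high-affinity receptor FcεRI, and they depend on KIT signalling, driven by the KIT ligand from neighbouring cells, for growth and survival. Connective tissue mast cells of mouse skin are known for carboxypeptidase A3, the chymases encoded by *Cma1* and *Mcpt4*, and tryptase, whereas melanocytes also carry KIT, so *Kit* RNA in skin has more than 1 cellular source.

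Mast cell genes are known targets of GATA factors, and promoter windows of the members were therefore searched for the GATA core motif. A window ran from 250 bases before to 50 bases after the transcription start in RefSeq (GRCm38.p6), and 8 of the 9 genes had an entry; *Tpsb2* had none. The letters GATAA, searched on both strands so that TTATC counts as a match on the opposite strand, occurred in the windows of 5 of the 8 genes, and in 25.4% of all 32851 windows. The 7 matches follow, each 30 bases long, 5′ to 3′ on the strand of the gene, with the motif in capitals, because these 5 genes are the protease and FcεRI genes whose levels are compared in the next paragraphs.
Cpa3, motif 45 bases before the start, chr3:20242210-20242239, minus strand: agctgttcgtcgaGATAAaagctgaggtat
Cma1, motif 194 bases before the start, chr14:55944853-55944882, minus strand: ctcactgcaaagaTTATCctctacccaaga
Mcpt4, motif 102 bases before the start, chr14:56062396-56062425, minus strand: catgagaatttctGATAAggaaagtagagc
Fcer1a, motif 92 bases before the start, chr1:173227305-173227334, minus strand: cacaaccctattaTTATCtctggagaaagc
Ms4a2, motif 224 bases before the start, chr19:11623927-11623956, minus strand: cttctgctctcttTTATCttctcatttcct
Ms4a2, motif 37 bases before the start, chr19:11623740-11623769, minus strand: tcagcctggagacTTATCtgacaagtaggt
Ms4a2, motif 10 bases before the start, chr19:11623713-11623742, minus strand: ggttccgcatgaaGATAAtcattggtattc
The windows of *Hdc*, *Kit* and *Kitl* did not hold these letters. The E-box CANNTG, a motif bound by basic helix-loop-helix factors, occurred in 6 of the 8 windows and in 72.3% of all windows. The MITF-type E-box CATGTG, which is contained in CANNTG, occurred in the *Fcer1a* window only and in 14.2% of all windows. The TEAD motif CATTCC occurred in none of the 8 windows and in 14.7% of all windows. Such matches are descriptions of the letters in these windows and not of factor binding.

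Total counts per library ranged from 11225705 to 19505036, and levels are given as CPM, which is counts scaled to library size, after scaling by the trimmed mean of M values (TMM). A gene was tested when it had at least 1 CPM in at least 3 samples (15102 genes), by edgeR's quasi-likelihood test with Benjamini-Hochberg adjustment over all tested genes (FDR), and was called at an FDR below 0.05. Endogenous *Yap1* had a mean of 131 CPM in WT and 136 CPM in TG skin (FDR 0.635), and it is not known whether transgene reads were counted on it, so the genotype labels could not be checked by this gene. TG replicate 2 stood apart in several cell type markers, with the lowest summed melanocyte marker level of all libraries (216 CPM, against 354 and 386 CPM in the other TG libraries). WT replicate 1 had the lowest skeletal muscle marker sum of the WT libraries (1257 CPM, against 5020 and 6093 CPM). Basal keratinocyte markers were abundant in every library (3399 to 7170 CPM in sum), as the skin label requires. The labels name no batch.

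In TG skin, RNA of *Cma1* and *Hdc* was higher than in WT skin, and these were the 2 of 8 tested members that passed the FDR threshold, where 1.91% of all tested genes did (1.44% as higher and 0.464% as lower in TG). *Cpa3*, *Mcpt4*, *Tpsb2* and *Ms4a2* had FDR values from 0.053 to 0.063, just above the threshold, with every TG library above every WT library. *Kit* and *Kitl* had lower mean levels in TG skin and did not pass. The groups did not overlap for 7 of the 8 tested members, against 33.8% of all tested genes, and 7 had an unadjusted p below 0.05, against 26.3%. The median log2 fold change of the 8 tested members was 0.58, beside -0.01 over all tested genes. *Ms4a2* passed the 1 CPM filter only through its TG libraries and is no support for these counts: without it 6 of 7 members did not overlap, 6 of 7 had an unadjusted p below 0.05, and the median was 0.56. The members were chosen with earlier results of these data known, so their shares beside those of all genes are descriptions. The number of calls differed between tests. The likelihood-ratio test of edgeR called 6 members (all but *Kit* and *Kitl*, and so with *Ms4a2*), where it called 10.4% of all tested genes. DESeq2 called 5, where it called 10.5%, and voom called *Hdc* alone, where it called 1.65%. The quasi-likelihood test called 4 members with upper-quartile scaling, where it called 2.75% of genes, and 4 without a low-count filter, where it called 1.87%. With RLE scaling (2.36% of genes called) and with at least 10 counts required in every sample (2.07%) it called the 2 members *Cma1* and *Hdc*. Without WT replicate 2, WT replicate 3 or TG replicate 3, 0 of all tested genes were called by edgeR's test, with 2726, 2844 and 3691 at an unadjusted p below 0.05.

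**Figure D1:**
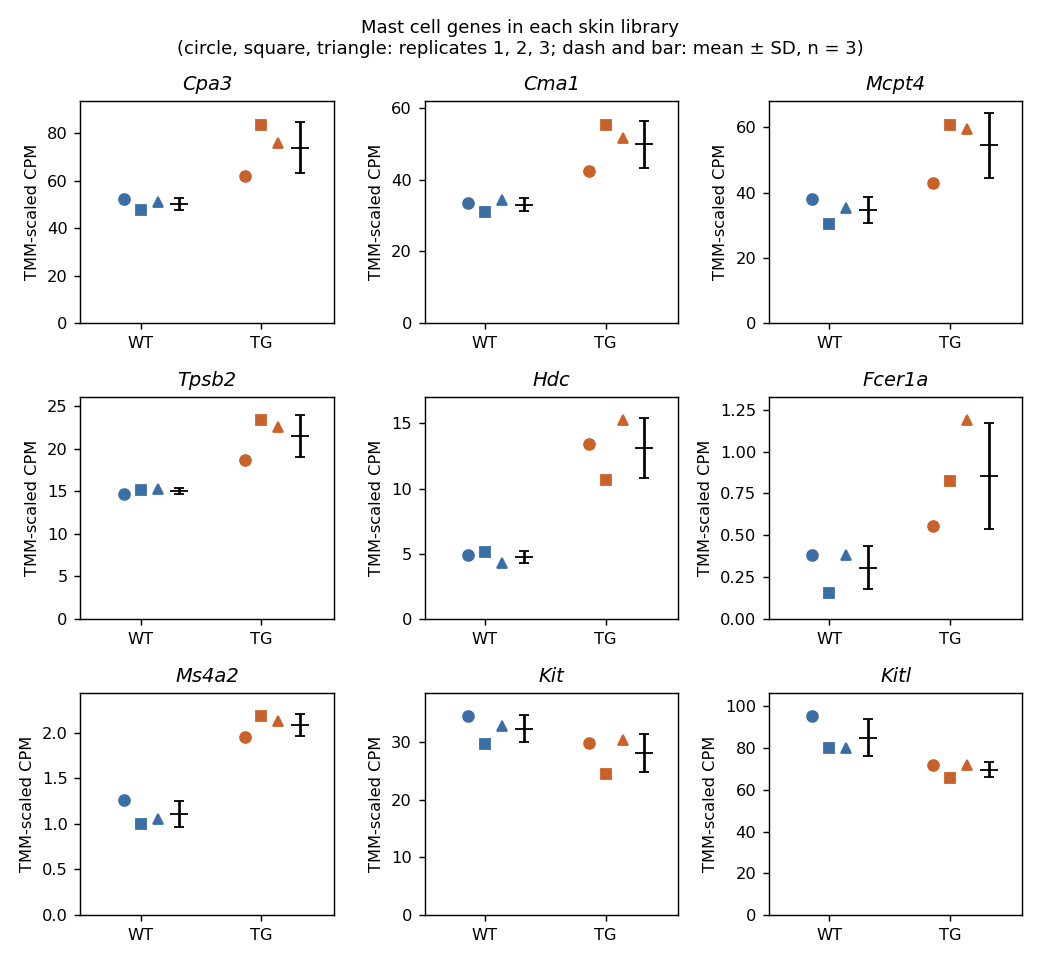
TMM-scaled CPM (vertical axes, each from 0) of the 9 mast cell genes in the 3 WT and 3 TG libraries, with 1 point per library and the mean ± SD (n = 3) beside each group. All TG points lie above all WT points for the 4 proteases, *Hdc*, *Fcer1a* and *Ms4a2*, and below them for *Kitl*, while the points of *Kit* overlap.

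*Cpa3* (ENSMUSG00000001865, chr3:20215620-20242181, minus strand) encodes carboxypeptidase A3, a metalloprotease of mast cell granules. It had 52.1, 47.6 and 50.9 CPM in WT replicates 1 to 3 and 62.2, 83.7 and 76.0 CPM in TG replicates 1 to 3. The WT libraries lay close together and the TG libraries were all higher, with TG replicate 1 nearest to WT. The means were 50.2 ± 2.32 CPM (SD, n = 3) in WT and 74.0 ± 10.9 CPM (SD, n = 3) in TG skin. The log2 fold change of 0.56 ± 0.11 (standard error) had an FDR of 0.053, and it passed the threshold without TG replicate 1 (FDR 0.043) and without TG replicate 2 (FDR 0.039). It did not pass without WT replicate 1 (FDR 0.084), WT replicate 2 (FDR 0.191), WT replicate 3 (FDR 0.167) or TG replicate 3 (FDR 0.099).

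*Cma1* (ENSMUSG00000022225, chr14:55941451-55944675, minus strand) encodes mast cell chymase 1. It had 33.5, 31.0 and 34.4 CPM in WT and 42.4, 55.3 and 51.6 CPM in TG replicates 1 to 3. The order of the TG libraries was that seen for *Cpa3*, with replicate 1 lowest and replicate 2 highest. The means of 32.98 ± 1.76 CPM (SD, n = 3) and 49.8 ± 6.63 CPM (SD, n = 3) differed by 0.59 on the log2 scale (standard error 0.11), a 1.51-fold higher level in TG skin that passed the threshold (FDR 0.047). The call was lost without WT replicate 1 (FDR 0.078), WT replicate 2 (FDR 0.187), WT replicate 3 (FDR 0.144) or TG replicate 3 (FDR 0.092), with log2 fold changes of 0.53 to 0.72 over all 6 fits that leave out 1 library.

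*Mcpt4* (ENSMUSG00000061068, chr14:56059629-56062313, minus strand) encodes mast cell protease 4, the other chymase of connective tissue mast cells. Its levels were 38.1, 30.4 and 35.4 CPM in WT and 42.9, 60.8 and 59.6 CPM in TG replicates 1 to 3. TG replicate 1 was closer to the highest WT library than to the other TG libraries. The log2 fold change of 0.65 ± 0.15 (standard error) had an FDR of 0.063, and without TG replicate 1 it was 0.82 with an FDR of 0.048. The other 5 fits that leave out 1 library did not pass, with FDR values of 0.077 to 0.206.

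*Tpsb2* (ENSMUSG00000033825, chr17:25366305-25369098, plus strand) encodes the tryptase known as mast cell protease 6. It had 14.7, 15.1 and 15.3 CPM in WT and 18.7, 23.3 and 22.5 CPM in TG replicates 1 to 3. WT libraries differed little (15.0 ± 0.328 CPM, SD, n = 3), and the TG libraries were all higher (21.5 ± 2.47 CPM, SD, n = 3). TG skin was higher by 0.52 ± 0.10 on the log2 scale (standard error; FDR 0.053).

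The 4 proteases together amounted to 138, 124 and 136 CPM in WT and 166, 223 and 210 CPM in TG libraries, with means of 133 ± 7.61 and 199.7 ± 29.8 CPM (SD, n = 3), a 1.503-fold higher sum in TG skin (two-sided exact permutation p = 0.1, which is the lowest value possible with 3 libraries a group). Their proportions to each other varied little between libraries. *Cma1* RNA was 0.642, 0.652 and 0.677 of *Cpa3* RNA in WT and 0.683, 0.661 and 0.679 in TG libraries, with overlapping groups. The ratio of *Mcpt4* to *Cpa3* ranged from 0.639 to 0.731 in WT and from 0.690 to 0.784 in TG libraries, and that of *Tpsb2* from 0.282 to 0.318 and from 0.279 to 0.301, likewise overlapping. The log2 differences of these 3 ratios were 0.04, 0.09 and -0.04 (exact permutation p = 0.2, 0.5 and 0.4, adjusted 0.333, 0.556 and 0.5). Of the 15101 other tested genes, *Cma1* had the third-highest correlation with *Cpa3* over the 6 libraries (Pearson's r 0.995 on log2 CPM), *Mcpt4* rank 30 (0.984) and *Tpsb2* rank 37 (0.981). The genes nearest to *Cpa3* besides *Cma1* were *Map4k5* (0.997), *Maob* (0.997), *Ugcg* (0.994) and *H2-D1* (0.993). These correlations describe 6 libraries that share the genotype difference and carry no test.

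*Hdc* (ENSMUSG00000027360, chr2:126593667-126619299, minus strand) encodes histidine decarboxylase, which makes histamine from histidine. It had 4.89, 5.13 and 4.28 CPM in WT and 13.4, 10.6 and 15.2 CPM in TG replicates 1 to 3, from 45 to 98 counts in WT and 181 to 244 counts in TG libraries. The lowest TG library was above the highest WT library, and TG replicate 2, the highest for *Cpa3*, was the lowest of the TG libraries for *Hdc*. The means of 4.77 ± 0.437 CPM (SD, n = 3) and 13.1 ± 2.31 CPM (SD, n = 3) gave a log2 fold change of 1.45 (standard error 0.16), a 2.73-fold higher level in TG skin and the largest difference of the 8 tested members (FDR 0.030). The call was lost without WT replicate 2 (FDR 0.163), WT replicate 3 (FDR 0.114) or TG replicate 3 (FDR 0.091), while the log2 fold change stayed between 1.33 and 1.59 over the 6 fits that leave out 1 library.

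*Hdc* RNA was higher in TG libraries also in proportion to *Cpa3* RNA. The ratio of *Hdc* to *Cpa3* was 0.0939, 0.108 and 0.0841 in WT and 0.216, 0.127 and 0.200 in TG libraries, so the groups did not overlap and TG replicate 2 was the nearest to WT. The log2 difference was 0.90 (two-sided exact permutation p = 0.1, and 0.2 after Benjamini-Hochberg adjustment over the 10 ratios computed). *Hdc* is also expressed by basophils and some other myeloid cells. The basophil proteases *Mcpt8* and *Prss34* reached at most 0.499 and 0.250 CPM in any library, and the summed level of the 4 basophil markers was 7.70 to 9.80 CPM in WT and 9.07 to 10.5 CPM in TG libraries, most of it *Cd200r3*, which mast cells also express. In ratio to the summed level of 4 general leukocyte markers, *Hdc* was 0.0444 to 0.0585 in WT and 0.0772 to 0.0996 in TG libraries (log2 difference 0.80, exact permutation p = 0.1, adjusted 0.2).

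**Figure D2:**
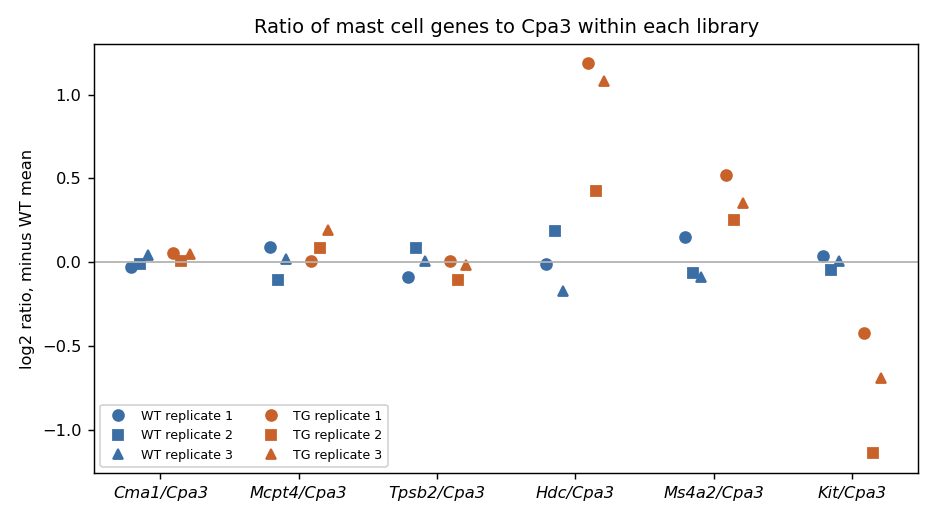
Log2 of the ratio of each of 6 mast cell genes to *Cpa3* within each library, minus the WT mean of that ratio (vertical axis), with 1 point per library and groups by colour. The ratios of the other proteases lie near 0 in both groups, those of *Hdc* and *Ms4a2* lie higher in all 3 TG libraries, and that of *Kit* lies lower in all 3.

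The alpha and beta chains of FcεRI were low in whole skin, while the gamma chain *Fcer1g*, which other Fc receptors of leukocytes share and which is not a member, had 9.67, 11.9 and 13.4 CPM in WT and 18.5, 19.2 and 16.2 CPM in TG replicates 1 to 3 (log2 fold change 0.63, FDR 0.061, without overlap). *Fcer1a* (ENSMUSG00000005339, chr1:173221284-173227214, minus strand), the IgE-binding alpha chain, had 7, 3 and 4 counts in WT and 10, 14 and 19 counts in TG replicates 1 to 3, which is 0.385, 0.157 and 0.381 CPM against 0.556, 0.824 and 1.19 CPM. It did not reach the expression filter and was not tested; in the fit without a filter TG skin was higher by 1.51 ± 0.46 on the log2 scale (standard error; FDR 0.125, where 1.87% of 26579 genes were called). All TG values were above all WT values, at counts near the lower limit of 3 counts, which corresponds to 0.157 to 0.285 CPM depending on the library.

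*Ms4a2* (ENSMUSG00000024680, chr19:11615523-11623719, minus strand), the beta chain, which amplifies the receptor signal, had 1.26, 0.994 and 1.05 CPM in WT and 1.95, 2.18 and 2.12 CPM in TG replicates 1 to 3, from 11 to 23 and 34 to 37 counts. Both groups were narrow and did not overlap. TG skin was higher by 0.91 ± 0.19 on the log2 scale (standard error; FDR 0.058). In ratio to *Cpa3* the log2 difference was 0.38, without overlap (exact permutation p = 0.1, adjusted 0.2). *Ms4a2* passed the expression filter only through its TG libraries, so these values are given as a description.

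*Kit* (ENSMUSG00000005672, chr5:75574916-75656722, plus strand) encodes the receptor for the growth factor that mast cells and melanocytes require. It had 34.4, 29.7 and 32.8 CPM in WT and 29.8, 24.4 and 30.3 CPM in TG replicates 1 to 3. The groups overlapped, with TG replicate 2 the lowest library. The log2 fold change of -0.20 ± 0.11 (standard error) did not pass (FDR 0.277), and without TG replicate 2 it was -0.09 (FDR 0.627). Whereas *Kit* was 0.660, 0.623 and 0.645 of *Cpa3* in WT libraries, it was 0.479, 0.291 and 0.398 of *Cpa3* in TG libraries, a log2 difference of -0.75 without overlap (exact permutation p = 0.1, adjusted 0.2).

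Melanocyte markers are given beside *Kit* because melanocytes carry it. The summed level of 10 melanocyte genes did not overlap between the groups, at 588 to 648 CPM in WT and 216 to 386 CPM in TG libraries. All 10 had lower means, 9 did not overlap between the groups (33.8% of all tested genes did not), and 2 passed the test (0.464% of all tested genes were called as lower), *Tyrp1* (log2 fold change -1.16) and *Dct* (-0.80), both melanin synthesis enzymes and both at FDR 0.047. *Kit* in ratio to this sum was 0.0531, 0.0505 and 0.0518 in WT and 0.0772, 0.113 and 0.0855 in TG libraries (log2 difference 0.81, exact permutation p = 0.1, adjusted 0.2). *Kit* RNA of mast cells and of melanocytes cannot be told apart in these bulk samples, and the part of either in the *Kit* level was not tested.

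*Kitl* (ENSMUSG00000019966, chr10:100015630-100100416, plus strand) encodes the KIT ligand, known as stem cell factor, which keratinocytes, fibroblasts and endothelial cells make. It had 95.2, 79.8 and 80.0 CPM in WT and 71.8, 65.6 and 71.8 CPM in TG replicates 1 to 3. All TG libraries were below all WT libraries, and WT replicate 1 was well above the other WT libraries. The log2 fold change of -0.29 ± 0.09 (standard error) did not pass (FDR 0.10), and it was -0.19 without WT replicate 1 (FDR 0.167). The ratio of *Kit* to *Kitl* ranged from 0.361 to 0.410 in WT and from 0.371 to 0.422 in TG libraries and overlapped (exact permutation p = 0.3, adjusted 0.429).

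**Figure D3:**
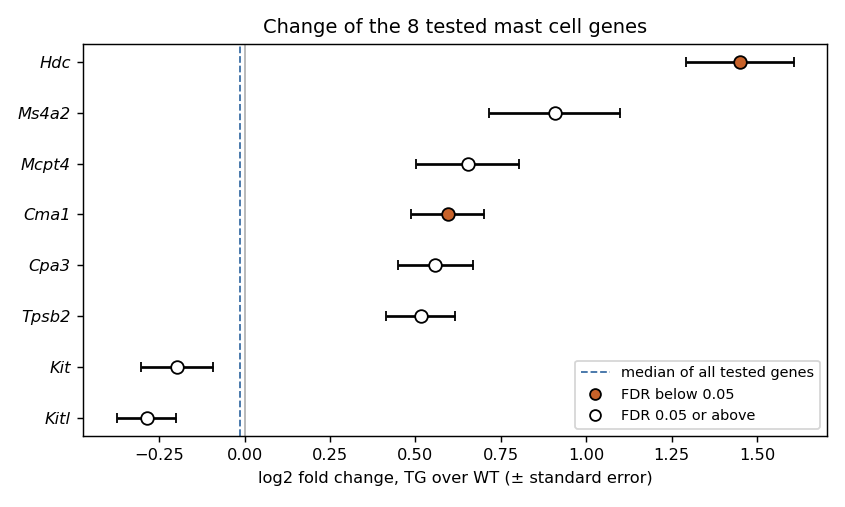
Log2 fold change of TG over WT (horizontal axis) ± its standard error for the 8 tested mast cell genes in edgeR's quasi-likelihood test, with filled points for an FDR below 0.05 and the median of all 15102 tested genes as a dashed line. *Hdc* lies at 1.45 and *Cma1* at 0.59 as filled points, and *Kit* and *Kitl* lie left of the line.

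Levels of different genes were compared per kilobase of exon length. In WT skin *Cpa3* (33.1 ± 1.53 CPM per kb), *Mcpt4* (31.3 ± 3.52) and *Cma1* (30.3 ± 1.61) had the highest levels of the members, and their ranges overlapped. They were followed by *Kitl* (14.4 ± 1.495 CPM per kb), *Tpsb2* (9.44 ± 0.206), *Kit* (3.63 ± 0.271) and *Hdc* (0.746 ± 0.0684), each separate from its neighbours, and by *Ms4a2* (0.392 ± 0.0509) and *Fcer1a* (0.308 ± 0.131), whose ranges overlapped (SD, n = 3 throughout). In TG skin the same 3 proteases led, with *Mcpt4* at 49.1 ± 9.05, *Cpa3* at 48.8 ± 7.18 and *Cma1* at 45.7 ± 6.08 CPM per kb, again overlapping. *Tpsb2* (13.5 ± 1.55 CPM per kb) and *Kitl* (11.8 ± 0.604) overlapped in TG skin, where they had been separate in WT skin. *Kit* (3.16 ± 0.369 CPM per kb) and *Hdc* (2.05 ± 0.361) did not overlap in TG skin, and *Fcer1a* (0.857 ± 0.317) and *Ms4a2* (0.740 ± 0.0427) did (SD, n = 3 throughout).

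General leukocyte markers were higher in TG skin, and more mast cells and more RNA per mast cell cannot be told apart in bulk samples. The 4 general leukocyte markers all passed the test in the direction of higher levels (1.44% of all tested genes did), *Ptprc* with a log2 fold change of 0.65 (FDR 0.034), *Coro1a* with 0.62 (FDR 0.040), *Laptm5* with 0.61 (FDR 0.030) and *Cd53* with 0.72 (FDR 0.034). Their summed level was 87.7 to 96.5 CPM in WT and 138 to 153 CPM in TG libraries. The ratio of *Cpa3* to this sum was 0.569, 0.543 and 0.528 in WT and 0.438, 0.607 and 0.497 in TG libraries, which overlapped (log2 difference -0.10, exact permutation p = 0.6, adjusted 0.6). Summed markers of 4 more cell types were higher in every TG library than in every WT library. They were 419 to 506 CPM in WT and 591 to 670 CPM in TG libraries for 8 macrophage genes, 3399 to 4122 and 5618 to 7170 CPM for 6 basal keratinocyte genes, 3378 to 4084 and 4361 to 8231 CPM for 4 suprabasal keratinocyte genes, and 99.9 to 109 and 114 to 139 CPM for 5 endothelial genes. Gene by gene, the groups did not overlap for 8 of 8 macrophage, 3 of 6 basal keratinocyte, 1 of 4 suprabasal keratinocyte and 3 of 5 endothelial genes. Of all tested genes 33.8% did not overlap. Both keratinocyte sums were highest in TG replicate 2. The sums of T cell, fibroblast, skeletal muscle and adipocyte markers overlapped between the groups. The 8 macrophage genes correlated with *Cpa3* over the 6 libraries at 0.631 (*C1qa*) to 0.961 (*Cd163*), as a description that includes the genotype difference. The part of these cell types in the levels of the mast cell genes was not tested.

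**Figure D4:**
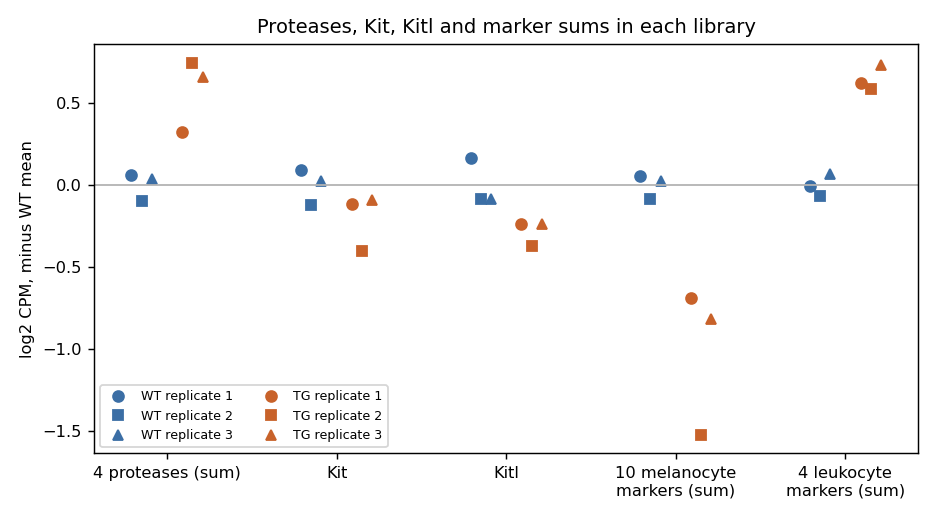
Log2 CPM minus the WT mean (vertical axis) of the summed 4 proteases, *Kit*, *Kitl*, the summed 10 melanocyte markers and the summed 4 leukocyte markers, with 1 point per library. The protease and leukocyte sums lie higher in all TG libraries, the melanocyte sum lies lower in all, with TG replicate 2 lowest, and *Kit* overlaps.

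The members were set beside 67 other genes of mast cell biology in 6 lists, of which 52 were tested, 10 were called as higher and 1 as lower in TG skin (1.44% and 0.464% of all tested genes), with a median log2 fold change of 0.49. Without WT replicate 2, WT replicate 3 or TG replicate 3, 0 of the list genes were called, with 27, 30 and 31 at an unadjusted p below 0.05 (edgeR), while 5 were called without WT replicate 1 (0.949% of all tested genes), 2 without TG replicate 1 (0.557%) and 16 without TG replicate 2 (5.46%). Many of these genes are also expressed by other leukocytes or by keratinocytes. The lists, like the members, were chosen with earlier results of these data known. Among 14 granule proteins and enzymes 7 were tested and 0 were called (quasi-likelihood test of edgeR), with 1 at an unadjusted p below 0.05 and a median of 0.17. That gene was *Srgn*, the proteoglycan core that holds proteases in the granule, with 11.8, 11.6 and 13.7 CPM in WT and 21.5, 15.6 and 24.3 CPM in TG libraries (log2 fold change 0.73, FDR 0.063). The most abundant genes of the list, *Ctsd* (0.08, FDR 0.642) and *Rab27b* (0.06, FDR 0.753), are lysosomal and secretory genes of many cell types. Several other mast cell proteases were near 0: *Tpsab1*, another tryptase gene, reached at most 0.499 CPM and the mucosal mast cell proteases *Mcpt1* and *Mcpt2* at most 0.125 CPM in any library (these were named after their values were seen). *Tpsg1*, a further tryptase gene named likewise, had 0.628 to 1.32 CPM in WT and 0.779 to 1.82 CPM in TG libraries (log2 fold change 0.32, FDR 0.655).

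Of 12 mast cell surface receptors 9 were tested and 1 passed as higher, *Il1rl1*, the receptor of interleukin 33, with 4.95, 4.50 and 4.95 CPM in WT and 9.07, 7.53 and 9.61 CPM in TG libraries (log2 fold change 0.87, FDR 0.040). The 2 most abundant, the tetraspanin *Cd63* (0.28, FDR 0.118) and the inhibitory IgG receptor *Fcgr2b* (0.71, FDR 0.051), did not pass. The connective tissue mast cell receptors *Mrgprb1* and *Mrgprb2*, named after their values were seen, had log2 fold changes of 0.49 (FDR 0.17) and 0.36 (FDR 0.242), with overlapping groups.

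Of 15 genes that carry FcεRI and KIT signals, all 15 were tested, 5 passed as higher and 1 as lower, where 1.44% and 0.464% of all tested genes did. The higher genes were the kinase *Lyn* (0.50, FDR 0.046), the adaptor *Lcp2* (0.68, FDR 0.044), the lipid kinase subunit *Pik3cd* (0.57, FDR 0.044), the inhibitory phosphatase *Inpp5d* (0.69, FDR 0.040) and the exchange factor *Vav1* (0.84, FDR 0.030), given as log2 fold changes. *Fyn*, a kinase of many cell types, fell by 0.35 on the log2 scale (FDR 0.040), and *Plcg1* had -0.08 (FDR 0.437). The *Fyn* call was lost with the likelihood-ratio test (FDR 0.093) and without a low-count filter (FDR 0.051). *Vav1* had 5.33 to 6.05 CPM in WT and 10.1 to 10.6 CPM in TG libraries, and it is expressed throughout blood cells.

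Of 9 transcription factors of the lineage 8 were tested and 1 passed, *Spi1*, a factor of myeloid cells (log2 fold change 0.85, FDR 0.044). Of the 8, 6 had higher and 2 had lower levels in TG skin. Of the GATA factors, named after their values were seen, *Gata2* had 0.83 (FDR 0.062, without overlap) and *Gata1* was below the filter. *Mitf*, which both mast cells and melanocytes require, had 79.3, 83.8 and 86.5 CPM in WT and 51.6, 34.9 and 56.9 CPM in TG libraries, with TG replicate 2 lowest as for the melanocyte markers (-0.80, FDR 0.057), and *Zeb2* had 0.33 (FDR 0.059). Of 7 enzymes of prostaglandin and leukotriene synthesis, all tested, *Ptges* passed (0.87, FDR 0.030), with 34.0 to 38.4 CPM in WT and 57.1 to 72.8 CPM in TG libraries, whereas *Ptgs1* (0.72, FDR 0.123) did not.

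Of 10 growth and activating factors, 8 were in the matrix and 6 were tested, and 2 passed as higher. *Il33*, an epithelial alarmin that activates mast cells through the receptor encoded by *Il1rl1*, had 17.8, 15.7 and 22.0 CPM in WT and 64.9, 49.8 and 63.9 CPM in TG libraries. All TG libraries were far above all WT libraries, and the log2 fold change was 1.69 (standard error 0.15, FDR 0.019), not called without WT replicate 2 (FDR 0.112), WT replicate 3 (FDR 0.051) or TG replicate 3 (FDR 0.091). The chemokine *Cxcl12* had a log2 fold change of -0.04 (FDR 0.827). As for *Hdc*, the lowest of the TG libraries for *Il33* and *Il1rl1* was TG replicate 2.

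**Figure D5:**
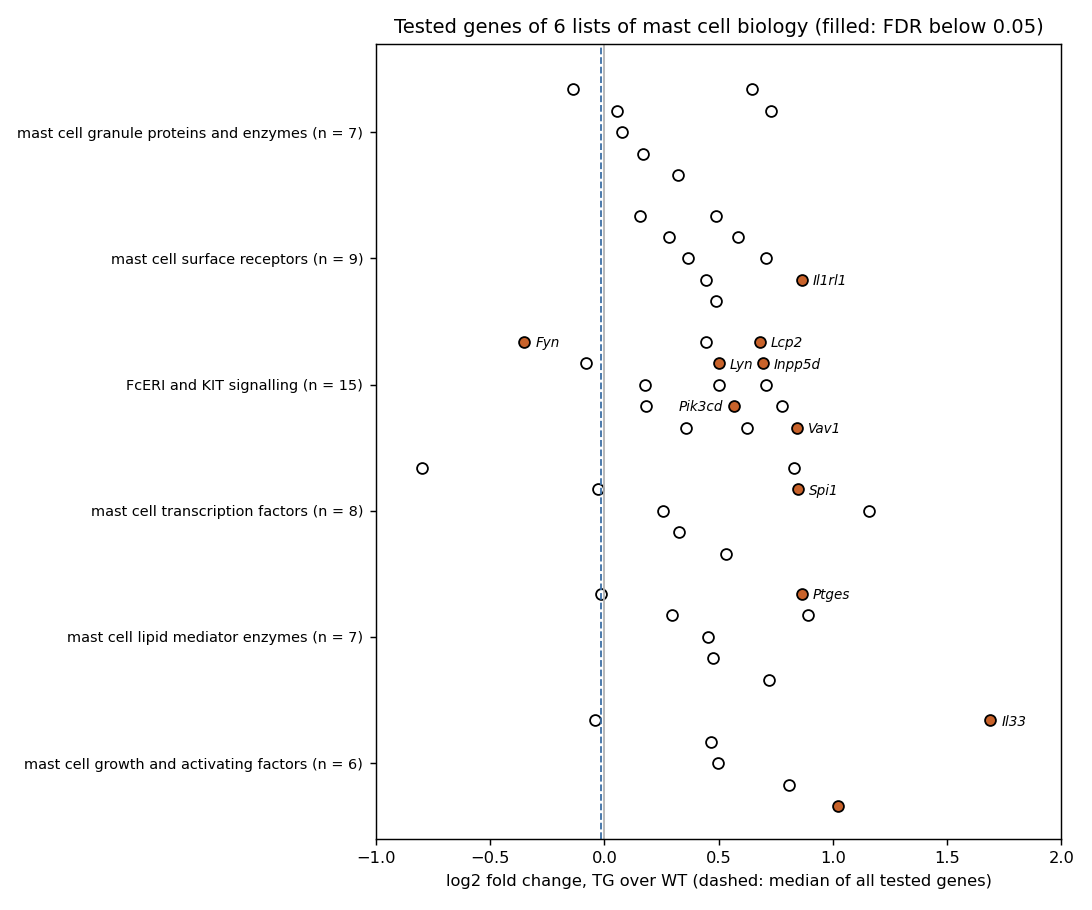
Log2 fold change of TG over WT (horizontal axis) of the 52 tested genes of the 6 lists of mast cell biology (rows), with 1 point per gene, filled where the FDR was below 0.05 (1 filled point carries no name), and the median of all tested genes as a dashed line. *Il33* lies furthest to the right at 1.69 and *Fyn* is the only filled point to the left of the line.

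Reads shared by near-identical genes bear on these counts, since only uniquely mapped reads were counted. Of all 75-base stretches of their transcripts, 1.67% for *Cma1*, 2.51% for *Mcpt4* and 1.22% for *Ms4a2* also occurred in transcripts of another gene on the same strand, and 0 of those of *Cpa3*, *Tpsb2*, *Hdc*, *Fcer1a*, *Kit* and *Kitl*. The only annotated gene that overlaps a member is *Mir7007*, within *Cpa3*, which shares 0 exonic bases with it.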

How the data were processed

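Whole-skin RNA libraries of 3 WT and 3 TG mice were analysed, 6 in all. The deposited values are the authors' raw counts for Ensembl genes, obtained by mapping paired-end reads to GRCm38 with TopHat2 (2.0.12 per the labels) and Bowtie2 (2.1.0) and counting uniquely mapped reads with HTSeq-count. The annotation release and strand setting are not given in the sources used here. The labels name a stranded total RNA kit and the study's methods mRNA libraries, and which was used is not settled here. Total counts were 11225705 to 19505036 per library, and 3 counts correspond to 0.157 to 0.285 CPM, a limit that covers counting error only.

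Genes were kept at 1 CPM or more in 3 or more samples, scaled by TMM, and tested in R 4.3.3 with edgeR 4.0.16 (glmQLFit and glmQLFTest, genotype as the only term, Benjamini-Hochberg FDR below 0.05). The standard error is the log2 fold change divided by the square root of F. The quasi-likelihood p-values set the genotype difference against the spread between these mice, estimated with the help of all tested genes. Ratios and sums were compared by two-sided exact permutation tests. Correlations with *Cpa3* used log2 CPM with a prior count of 2. Alternatives were RLE and upper-quartile scaling, no filter, at least 10 counts in every sample, the likelihood-ratio test, voom (limma 3.58.1), DESeq2 1.42.0, a fit with the replicate block, and fits that each omit 1 library. The scripts were tested on simulated data.

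Symbols and positions came from GENCODE M21 on GRCm38, which lacked 558 of the 26579 identifiers, and promoter sequences from RefSeq (GRCm38.p6). Overlap between near-identical genes was measured by shared 75-base stretches of transcripts, in place of the protein identities first planned. The members and lists were chosen with earlier results of these data known. Named genes were all members and, of the 6 lists, each gene with an FDR below 0.05, the 2 with the highest mean CPM and the one with the lowest p, the 5 genes most correlated with *Cpa3*, the first gene of each marker list, and called melanocyte, basophil and leukocyte markers. The values of 1 called gene of the lists are not reported here.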

Additional observations from a re-analysis of the deposited data

How the results depend on the processing

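All 8 tested members kept their direction in all 14 alternatives, and 2 of them were called with TMM, RLE scaling and the filter of at least 10 counts. With upper-quartile scaling and with no filter 4 were called (*Cpa3*, *Cma1*, *Tpsb2*, *Hdc*), with the likelihood-ratio test 6, with DESeq2 5 and with voom 1 (*Hdc*, FDR 0.037; *Cma1* 0.054). Over all tested genes, the 288 calls became 497 with no filter, 1568 with the likelihood-ratio test and 1583 with DESeq2, and the 11 calls in the 6 lists became 24 with the likelihood-ratio test and 26 with DESeq2. Leaving out 1 library gave 0 to 817 calls over all genes, 0 to 4 among the members and 0 to 16 in the lists. The members called numbered 1 without WT replicate 1 (0.949% of all tested genes called), 0 without WT replicates 2 or 3 or TG replicate 3 (0%), 4 without TG replicate 1 (0.557%) and 3 without TG replicate 2 (5.46%). In each of these fits 7 members had an unadjusted p below 0.05 (edgeR), as did 18.2% to 25.7% of all tested genes. *Ms4a2*, which passed the 1 CPM filter only through its TG libraries, is among these 7 and among the 6 of the likelihood-ratio test. It is no support for either count. The cause was not tested, and a fit on 5 libraries has fewer samples by construction.

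With the replicate number as a block, 0 genes, 0 members and 0 list genes were called in edgeR's quasi-likelihood test, with 2949, 7 and 30 at an unadjusted p below 0.05. Same-numbered libraries did not deviate together (correlations of -0.33, -0.23 and -0.05), and not every library correlated best with its own number. Deviations from a mean of 3 libraries are bound to each other, so these correlations cannot decide whether the numbers pair the mice. At this depth *Fcer1a* (3 to 19 counts) was not testable with the filter, and 3 mice a group limit an exact permutation test to p = 0.1.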

Other observations

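*Gzmb*, a granule protease of cytotoxic lymphocytes that some mast cells also express, was named after its values were seen. It had 1, 3 and 1 counts in WT and 9, 17 and 23 counts in TG replicates 1 to 3, and was below the expression filter. When no filter was applied it gave FDR 0.033 (edgeR), where 1.87% of 26579 genes were called. Its WT counts did not exceed the lower limit of 3 counts. *Tph1*, the enzyme of serotonin synthesis that mouse mast cells express, was also below the filter, with 0.385, 0.314 and 0.190 CPM in WT and 0.556, 1.06 and 1.69 CPM in TG replicates 1 to 3. All TG libraries were above all WT libraries for both genes, where 33.8% of all tested genes did not overlap between the groups. Of the other granule genes below the filter, *Tpsab1*, *Mcpt1* and *Ctsg* were also higher in every TG library, and *Mcpt2* overlapped. *Mcpt9* was lower in every TG library, at 0.0951 to 0.110 CPM in WT and 0 to 0.0556 CPM in TG libraries.

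Of the other marker lists, the macrophage list had 2 of 8 tested genes called as higher in TG skin by edgeR's test, *Csf1r* (log2 fold change 0.54, FDR 0.046) and *Mrc1* (0.54, FDR 0.034), where 1.44% of all tested genes were called as higher. All 8 were without overlap between the groups, as were 33.8% of all tested genes, and the first gene *Adgre1* had 0.40 (FDR 0.063). The basal keratinocyte list had 1 of 6 called, *Krt14* (0.95, FDR 0.030), and its first gene *Krt5* had 0.72 (FDR 0.081). In 6 further lists the FDR of each tested gene was above the threshold in edgeR's test, and the unadjusted p was below 0.05 for 1 of 4 suprabasal genes, 3 of 6 fibroblast genes, 2 of 5 endothelial genes, and 0 of 4 T cell, 0 of 5 muscle and 0 of 4 adipocyte genes, beside 26.3% of all tested genes. Their first genes were *Krt1* (0.72, FDR 0.089), *Col1a1* (0.33, FDR 0.423), *Pecam1* (0.32, FDR 0.109), *Cd3e* (0.61, FDR 0.235, the highest of the 4 tested T cell genes, whose other values were 0.11 to 0.19), *Ckm* (-1.12, FDR 0.287) and *Adipoq* (-0.07, FDR 0.822). The first melanocyte gene, *Tyr*, had -1.01 (FDR 0.067).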
